A study of Mus musculus with 8 samples.

Results

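The choroid plexus genes described here are Ttr, Kl, Folr1, Prlr, Kcnj13, Aqp1, Clic6, Calml4 and Otx2, followed on arrays of dissected mouse cerebellum. They are members of a fixed list of 9 gene symbols, each read from the probe set that the platform annotation assigns to that symbol alone. Of the 9 listed genes, 8 had such a probe set, among 19938 genes in all, and Prlr was not analysed here. Each of the 8 was measured by 1 probe set, and the 8 genes lie on 8 different chromosomes. Kcnj13 (probe set 10356403) is on chromosome 1, Kl (10527870) on chromosome 5, Aqp1 (10538459) on chromosome 6 and Folr1 (10566034) on chromosome 7. Calml4 (10586118) is on chromosome 9, Otx2 (10419356) on chromosome 14, Clic6 (10436958) on chromosome 16 and Ttr (10454192) on chromosome 18. The arrays came from mice aged 3 months: cerebellum of SCA17 knock-in mice (KI) and of wild-type mice (WT), and muscle of both genotypes. KI arrays carry the replicate numbers 94 and 97 and WT arrays 95 and 96 in both tissues, the muscle being named TA muscle in the study text. SCA17, spinocerebellar ataxia type 17, is an inherited disease in which the polyglutamine stretch of TBP, the TATA-box-binding protein, is lengthened. The sources used here do not give the length of the repeat, whether the KI mice carried 1 or 2 altered alleles, the strain, or how the cerebellum was cut out. The study text names 3 mice per genotype, while each of the 4 groups had 2 arrays here. No label says that the arrays of a group are separate animals, so the p-values measure the spread between these arrays, which may in part be technical.

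The choroid plexus is a fold of secretory epithelium over a leaky capillary bed that hangs into the brain ventricles and makes cerebrospinal fluid. Its hindbrain portion lies in the fourth ventricle, directly beneath the cerebellum, so cerebellar dissections can carry some of it. The epithelium pumps ions and water, moves vitamins and hormones from blood to fluid, and secretes carrier proteins. Its gene expression differs strongly from that of neurons and glia, and genes such as Ttr are used as markers of it in brain tissue.

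Otx2 encodes a homeodomain transcription factor that is needed for choroid plexus development and binds sequences of the type TAATCC. The 250 bases before the transcription start are printed for 3 genes, because several of the choroid plexus genes moved together between arrays and Otx2 is a known regulator of this epithelium. Kl is shown as the gene that varied most among the cerebellum arrays, Kcnj13 as the next, and Otx2 with the start whose window holds the full motif. Sequences are from RefSeq (GRCm38.p6), 5′ to 3′ on the strand of the gene. Capitals mark TAATC or TAATCC, on either strand, and TATAAA, the letters of a TATA box.
Kl, chr5:150952357-150952606, plus strand: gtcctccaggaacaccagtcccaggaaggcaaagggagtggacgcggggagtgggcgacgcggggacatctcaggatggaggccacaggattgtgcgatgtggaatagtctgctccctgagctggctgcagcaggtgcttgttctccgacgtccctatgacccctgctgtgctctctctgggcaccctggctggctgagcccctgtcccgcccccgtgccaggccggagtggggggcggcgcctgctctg
Kcnj13, chr1:87394730-87394979, minus strand: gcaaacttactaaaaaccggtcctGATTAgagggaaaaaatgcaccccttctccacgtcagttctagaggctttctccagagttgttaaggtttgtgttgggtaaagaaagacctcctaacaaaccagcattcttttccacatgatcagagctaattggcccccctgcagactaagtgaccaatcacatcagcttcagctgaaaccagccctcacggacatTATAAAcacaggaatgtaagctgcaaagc
Otx2, chr14:48665110-48665359, minus strand: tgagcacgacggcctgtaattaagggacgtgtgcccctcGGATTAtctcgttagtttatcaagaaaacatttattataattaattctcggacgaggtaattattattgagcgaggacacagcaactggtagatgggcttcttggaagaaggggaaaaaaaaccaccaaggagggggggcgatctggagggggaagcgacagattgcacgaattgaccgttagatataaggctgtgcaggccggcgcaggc

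The windows of these 3 genes differed in base composition, with 66.8% G and C bases in Kl, 45.2% in Kcnj13 and 48.4% in this window of Otx2. Windows on chromosome 18, where Ttr lies, were left out of the search, so Ttr was not examined. Of the 9 listed genes, 6 had a window among the rest, with 11 windows in all, since Otx2 had 4 starts and Prlr had 3. Folr1 and Clic6 had none there. The full TAATCC was found in 1 of the 11 windows, that of Otx2 printed above, beginning at position -211 relative to the start of transcription. It is present in 6.25% of the 32851 windows of the same length in the table, counted with no chromosome left out. The shorter TAATC, which is part of every TAATCC, was found in that window and in the window of Kcnj13, and is present in 19.8% of all windows. TATAAA began at position -29 in Kcnj13 and at position -192 in another Otx2 window, and is present in 12.4% of all windows. Windows of Kl, Aqp1 and Calml4 held none of the 3 motifs. A match is a description of the letters and no evidence of binding.

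All values are log2 expression values, on which a difference of 1 is a 2-fold change, and errors of group means are SD over 2 arrays. Array medians lay between 5.4 and 5.51, and the arrays of a group correlated with r from 0.977 to 0.989 over probe sets, which are not independent replicates. All 10 defining markers of cerebellum were called higher in cerebellum than in muscle, and all 7 defining markers of muscle were called lower. Calls rest on an adjusted p under 0.05 in limma (Benjamini-Hochberg over all genes tested), and calls between tissues need a 2-fold change as well. Testing within a tissue required that 2 or more of its 4 arrays reached the 40th percentile of their own probe set values, which lay between 4.96 and 5.05. All 8 genes reached it on all 4 cerebellum arrays. In muscle 5 of the 8 were tested, and Clic6, Calml4 and Otx2 were not.

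The first question was whether the list marks the cerebellum dissection, as set against a tissue without choroid plexus. Of the 8 genes, 5 were called higher in cerebellum than in muscle, where 15% of 14708 tested genes were, and 1 was called lower, where 11% were. Ttr, the secreted carrier of thyroid hormone and of retinol-binding protein, was the gene of the list furthest apart between the tissues. Its level was 12.14 and 11.61 in KI cerebellum and 11.60 and 11.81 in WT cerebellum, against 8.13 and 5.77 in KI muscle and 6.07 and 6.08 in WT muscle. All 4 cerebellum arrays lay above all 4 muscle arrays, and KI replicate 94 stood apart in muscle. The log2 difference, cerebellum minus muscle, was 5.28 ± 0.40 (SE; adjusted p = 1.42e-06, limma), a 38.8-fold higher level in cerebellum. It lay between 4.69 and 5.87 when arrays were left out in turn.

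Otx2 and Kcnj13 followed among the genes that were higher in cerebellum. Otx2 was at 7.98 and 7.69 in KI cerebellum and 7.62 and 7.53 in WT cerebellum, against 4.95 and 4.85 in KI muscle and 5.51 and 4.44 in WT muscle. That is 6.80-fold higher in cerebellum (log2 difference 2.77 ± 0.20, SE; adjusted p = 7.83e-07, limma). Otx2 is also known from granule cell precursors of the developing cerebellum, so it is not a marker of choroid plexus alone. Kcnj13 encodes Kir7.1, the inwardly rectifying potassium channel of the apical membrane of the epithelium. It was at 8.86 and 8.29 in KI cerebellum and 8.12 and 8.42 in WT cerebellum, against 5.97 and 5.39 in KI muscle and 5.79 and 5.98 in WT muscle. The level was 6.24-fold higher in cerebellum (2.64 ± 0.16, SE; adjusted p = 2.62e-07, limma).

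Clic6 and Kl were also called. Clic6, of the chloride intracellular channel family, was at 6.15 and 5.55 in KI cerebellum and 5.48 and 5.87 in WT cerebellum, against 4.27 and 3.95 in KI muscle and 4.03 and 3.97 in WT muscle. None of its muscle arrays reached the 40th percentile, so the 3.27-fold difference (adjusted p = 3.15e-06, limma) is one against low values in muscle. Kl encodes klotho, the co-receptor for fibroblast growth factor 23, which the epithelium also sheds into the fluid. Kl was at 7.38 and 6.63 in KI cerebellum and 6.26 and 6.84 in WT cerebellum, against 5.05 and 4.90 in KI muscle and 5.44 and 5.08 in WT muscle, a 3.15-fold higher level in cerebellum (adjusted p = 2.02e-05, limma).

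Folr1 and Calml4 passed the p threshold but were changed less than 2-fold. Folr1, the folate receptor that carries folate into cerebrospinal fluid, was at 6.02 and 5.59 in KI cerebellum and 5.45 and 6.11 in WT cerebellum, against 5.11 and 4.82 in KI muscle and 5.19 and 4.90 in WT muscle. The level was 1.73-fold higher in cerebellum (adjusted p = 0.0015, limma), with no overlap between the tissues. Calml4, a calmodulin-like protein of microvillus-bearing epithelia, was at 5.41 and 5.20 in KI cerebellum and 5.0 and 5.06 in WT cerebellum, against 5.01 and 4.91 in KI muscle and 4.44 and 4.64 in WT muscle. It lay close to the 40th percentile in cerebellum, and the tissues overlapped there, since KI muscle replicate 94 was level with the lowest cerebellum array.

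Aqp1 ran the other way. It encodes the water channel of the apical membrane of the choroid plexus, and is also known from capillary endothelium and red cells. Aqp1 was at 5.58 and 5.84 in KI cerebellum and 5.35 and 5.60 in WT cerebellum, against 9.62 and 9.43 in KI muscle and 9.74 and 9.58 in WT muscle. The log2 difference, cerebellum minus muscle, was -4.00 ± 0.10 (SE; adjusted p = 6.01e-10, limma), so that Aqp1 was 16.0-fold lower in cerebellum and all 4 cerebellum arrays lay below all 4 muscle arrays. Endothelial markers moved the same way between the tissues in part, with 5 of 10 called lower and 2 called higher in cerebellum. The part of endothelium in the Aqp1 difference was not tested.

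**Figure D1:**
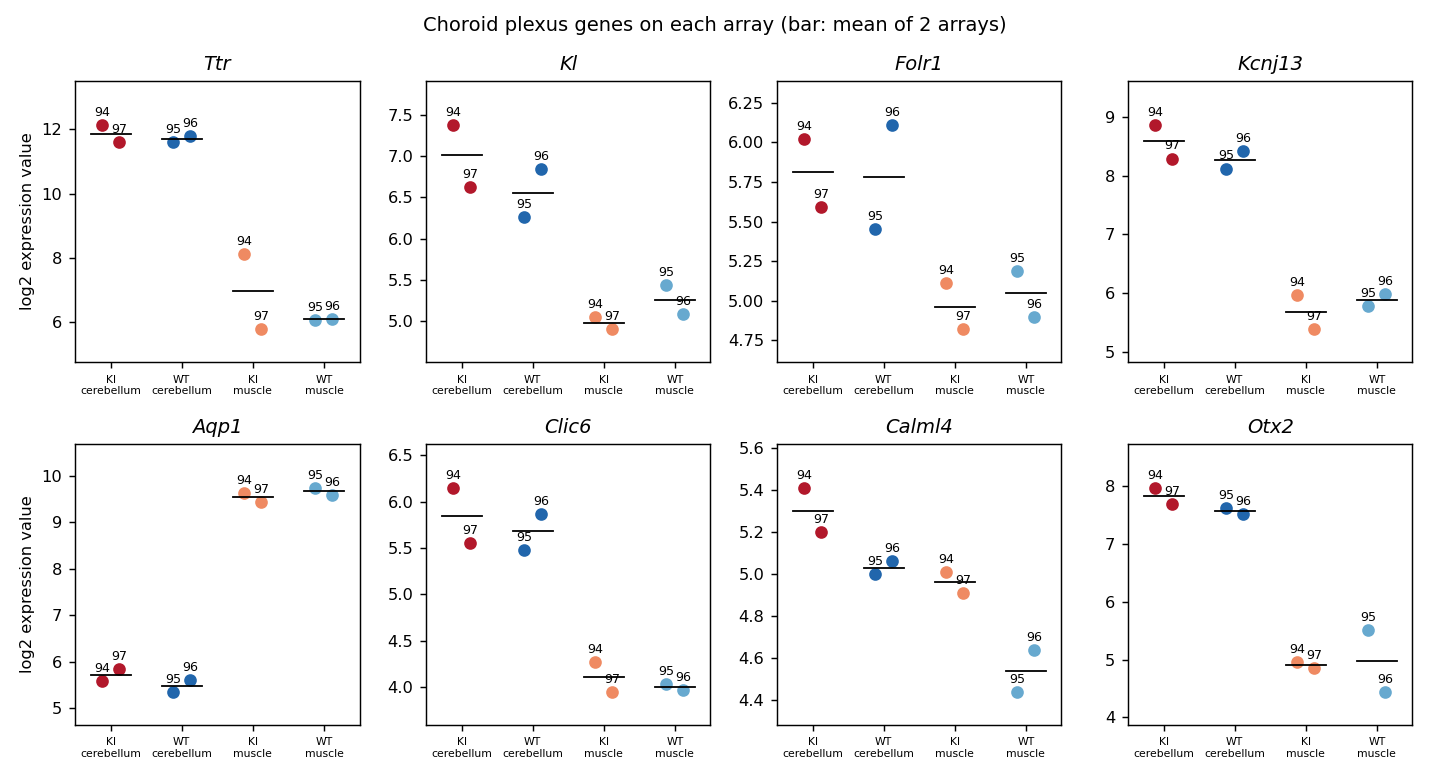
Log2 expression value (vertical axis, a separate scale per panel) of the 8 choroid plexus genes on every array, by group; points are arrays with their replicate number, and bars are means of 2 arrays. Cerebellum lies above muscle in Ttr, Otx2, Kcnj13, Clic6, Kl and Folr1, and below it in Aqp1, while Ttr on KI muscle replicate 94 is at 8.13 against 6.08 or lower on the other 3 muscle arrays.

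The second question was whether the genes differ between KI and WT cerebellum. None of the 8 was called in limma, where 0.205% of 13641 tested genes were. At an unadjusted p under 0.05 in limma there was 1, Calml4 (adjusted p = 0.918, limma), where 5.33% of all genes had such a p. The KI mean was above the WT mean in 8 of the 8 genes, against 47.5% of all tested genes, with a median log2 difference of 0.24 against -0.01 over all genes. The genes were chosen with earlier results of these data known, so this contrast is a description only. Some marker lists of other cell types also had mostly positive differences: 7 of 7 macrophage markers (median 0.31), 9 of 9 meningeal fibroblast markers (0.13) and 6 of 7 pericyte and smooth muscle markers (0.13). The counts were 7 of 10 for endothelial markers (0.05), 1 of 6 for ependymal markers (-0.04) and 0 of 10 for the defining markers of cerebellum (-0.24). A positive KI difference was thus not limited to the choroid plexus genes. In Calml4 and Otx2 the KI arrays were both higher than either WT array, an arrangement seen in 15.3% of all tested genes. In the other 6 genes the genotypes overlapped.

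The size of the KI excess differed between the KI arrays. Relative to the mean of the WT arrays, the 8 genes averaged 0.43 on KI replicate 94 and 0.04 on KI replicate 97, with -0.15 on WT replicate 95 and 0.15 on WT replicate 96. As folds of the WT mean these are 1.35, 1.03, 0.903 and 1.11. Thus 1 KI array stood above the WT arrays, and the other lay between them. All 8 genes were above the WT mean on KI replicate 94, and 5 of 8 were on KI replicate 97. Without KI replicate 94 the median difference was 0.05, and without KI replicate 97 it was 0.42. Without WT replicate 95 it was 0.13, and without WT replicate 96 it was 0.35. The number called was 0 each time. In whole tissue, more choroid plexus cells in a dissection and more RNA per cell cannot be told apart.

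Kl varied most. It deviated from the WT mean by 0.83 on KI replicate 94 and 0.08 on KI replicate 97, and the WT arrays lay 0.29 below and above their mean. The KI mean was 7.01 ± 0.53 and the WT mean 6.55 ± 0.41 (SD, n = 2 each), a log2 difference of 0.46 ± 0.26 (SE; adjusted p = 0.998, limma) with a 95% interval from -0.12 to 1.03. Its range over the 4 cerebellum arrays was 1.12, wider than that of 99.6% of tested genes, and the gap between the WT arrays alone, 0.58, was wider than that of 99.1%. Kl therefore differed between arrays of the same genotype by more than it differed between the genotype means.

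Kcnj13, Clic6 and Ttr had the same order of arrays as Kl, with KI replicate 94 highest and WT replicate 95 lowest. Kcnj13 deviated from the WT mean by 0.59 and 0.02 in the KI arrays, 94 and 97. Its means were 8.58 ± 0.40 in KI and 8.27 ± 0.21 in WT (SD, n = 2 each), and the 95% interval of the difference ran from -0.20 to 0.82. Clic6 deviated by 0.48 and -0.12, and its interval ran from -0.29 to 0.64. In both genes KI replicate 97 lay between the WT arrays. Ttr deviated by 0.43 and -0.09, with means of 11.87 ± 0.37 in KI and 11.70 ± 0.15 in WT (SD, n = 2 each). The interval of Ttr was wide, from -1.11 to 1.46, because the fit pools the spread of all 4 groups and the KI muscle arrays differed by far more than the others. With the cerebellum arrays alone Ttr was not called either (adjusted p = 0.931, limma).

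Folr1, Aqp1, Calml4 and Otx2 departed from that order in different ways or moved less. Folr1 was highest on WT replicate 96 and lowest on WT replicate 95, and the gap of 0.66 between these 2 WT arrays was wider than that of 99.5% of tested genes. Its difference between genotypes was 0.02 ± 0.23 (SE; 95% interval from -0.49 to 0.54). Aqp1 was highest on KI replicate 97, which deviated by 0.36, against 0.10 on KI replicate 94. It was the only one of the 8 genes with KI replicate 97 above KI replicate 94. Calml4 deviated by 0.38 and 0.17 in the KI arrays, 94 and 97, with WT arrays only 0.06 apart, and its interval ran from 0.00 to 0.55. Otx2 deviated by 0.40 and 0.12 in the same arrays, and was the only one of the 8 with WT replicate 96 below WT replicate 95, by 0.09. The range of the 8 genes over the 4 arrays was from 0.41 in Calml4 to 1.12 in Kl, where the median tested gene had 0.26 and the 90th percentile was 0.51.

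**Figure D2:**
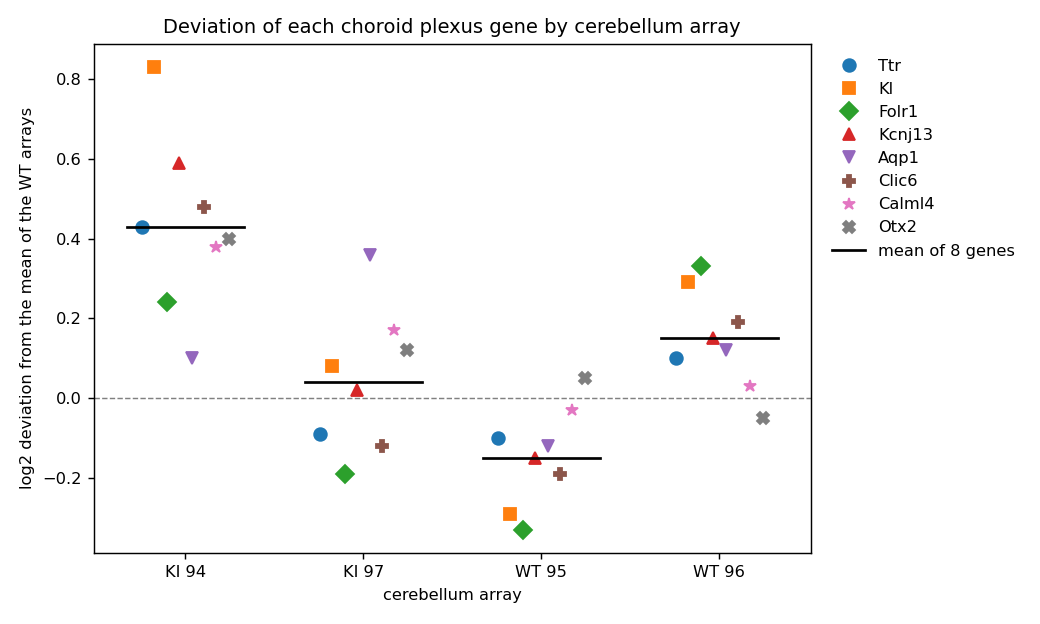
Deviation of each of the 8 genes from the mean of the WT arrays (vertical axis, log2) on the 4 cerebellum arrays; symbols are genes and bars their mean. All 8 genes lie above 0 on KI replicate 94, with a mean of 0.43, while KI replicate 97, at 0.04, lies between WT replicate 95, at -0.15, and WT replicate 96, at 0.15.

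The array order was counted against all tested genes. KI replicate 94 was the highest cerebellum array in 6 of the 8 genes, where it was in 23.8% of all genes, and WT replicate 95 the lowest in 7 of 8, where it was in 27.1%. Both held in 5 of the 8 genes (Kl, Kcnj13, Clic6, Ttr and Calml4), and in 7.66% of the 13641 tested genes. KI replicate 94 was above KI replicate 97 in 7 of 8, where 47.9% of all genes were. WT replicate 96 was above WT replicate 95 in 7 of 8, where 53.4% were. The 8 genes were read on the same 4 arrays and are not independent of each other. They were also chosen with earlier results of these data known, so the counts describe these arrays only.

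Genes of the choroid plexus outside the 8 were taken from 3 further lists, of which 30 genes were tested in cerebellum. None was called between KI and WT in limma, where 0.205% of all tested genes were. An unadjusted p under 0.05 was seen in 2 of 30, against 5.33% of all tested genes. The difference was positive in 21 of 30, against 47.5% of all tested genes, with a median of 0.11. That median was -0.03 without KI replicate 94 and 0.29 without KI replicate 97, and it was 0.06 without WT replicate 95 and 0.21 without WT replicate 96. KI replicate 94 was above KI replicate 97 in 25 of 30, against 47.9% of all tested genes, and WT replicate 96 above WT replicate 95 in 26 of 30, against 53.4%. The combined order, KI replicate 94 highest and WT replicate 95 lowest, held in 13 of 30, against 7.66%. Between the tissues 8 of 31 tested were called higher in cerebellum, where 15% of all tested genes were, and 3 were called lower, where 11% were.

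Among secreted, surface and matrix genes, 8 of 9 had positive differences (median 0.36). Tmem72, a membrane protein of the choroid plexus, was at 5.73 and 5.70 in KI cerebellum against 5.22 and 5.42 in WT cerebellum (log2 difference 0.40 ± 0.11, SE; unadjusted p = 0.00686, adjusted p = 0.551, limma). Both KI arrays were above both WT arrays, an arrangement seen in 15.3% of all tested genes, and the KI arrays were nearly equal. The genes named from each further list are those with its smallest p in cerebellum, so their values are a description only. Igf2, insulin-like growth factor 2, which is also made by meninges, was at 8.57 and 8.26 in KI against 7.60 and 8.23 in WT (adjusted p = 0.914, limma). Col8a1, a chain of type VIII collagen, was at 5.95 and 5.68 in KI against 5.26 and 5.65 in WT. Sostdc1, a secreted inhibitor of BMP and Wnt signalling, was at 7.13 and 6.34 in KI against 5.87 and 6.59 in WT, so its genotypes overlapped. The gap of Sostdc1 between arrays of the same genotype was 0.79 in KI and 0.73 in WT, of the kind seen in Kl.

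Among transporters and channels, 10 of 13 had positive differences (median 0.12). Slc13a4, a sulfate transporter that is also known from the meninges, was at 7.40 and 7.12 in KI against 6.51 and 7.05 in WT (0.47 ± 0.22, SE; adjusted p = 0.935, limma). Slc2a12, a glucose transporter, was at 7.56 and 6.79 in KI against 6.53 and 7.04 in WT, and overlapped between genotypes. Slc39a4, a zinc importer, was at 5.24 and 5.31 in KI against 5.0 and 5.14 in WT. Slc29a4, a monoamine transporter, had the opposite sign, at 7.10 and 7.27 in KI against 7.32 and 7.50 in WT (-0.23 ± 0.12, SE; adjusted p = 0.998, limma).

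Among regulators and structural genes 3 of 8 had positive differences (median -0.04). Krt18 and Krt8, keratins of simple epithelia, differed by -0.11 and -0.07, Wdr86 by 0.08, and Trpm3, a cation channel, by -0.07. In this list too KI replicate 94 was above KI replicate 97 in 8 of 8 genes (47.9% of all tested genes), by a median of 0.12. WT replicate 96 was above WT replicate 95 in 7 of 8 (53.4%), by a median of 0.19. The median gap of all tested genes, whatever its sign, was 0.14 in KI and 0.11 in WT. The sign of the difference between arrays of the same genotype was thus the one seen in the 8 choroid plexus genes. Its median size in KI was no larger than in a typical gene, and the median difference between genotypes was near 0.

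Markers of other cells that a dissection can hold were counted on the same arrays. KI replicate 94 was above KI replicate 97 in 3 of 6 tested ependymal markers, 4 of 9 meningeal fibroblast, 5 of 10 endothelial, 1 of 7 pericyte and smooth muscle and 5 of 7 macrophage markers. WT replicate 96 was above WT replicate 95 in 6 of 6, 7 of 9, 8 of 10, 6 of 7 and 4 of 7 of these. Over all tested genes the shares were 47.9% for KI replicate 94 and 53.4% for WT replicate 96. The higher level of WT replicate 96 was thus shared by several of these lists. The ependymal list rests on few genes, and Foxj1, the regulator of motile cilia that defines these cells, was below the 40th percentile on all 4 cerebellum arrays. Of the red cell list only 1 of 5 genes was measured here. Between KI and WT cerebellum, 7 of 10 endothelial markers (median 0.05) and 1 of 6 ependymal markers (-0.04) had positive differences, beside the macrophage, meningeal and pericyte counts given above. None of these lists had a gene called between KI and WT cerebellum in limma, and their part in the results was not tested.

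Markers that define the cerebellum itself ran against the choroid plexus genes. KI replicate 94 was below KI replicate 97 in all 10, by a median of 0.31, and the KI mean was below the WT mean in all 10 (median -0.24), with none called in limma and 3 at an unadjusted p under 0.05. These 3 were Pcp2 (-0.89), Car8 (-0.74) and Calb1 (-0.57), where 5.33% of all tested genes had such a p. Both KI arrays lay below both WT arrays in these 3, and also in Gabra6, Neurod1 and Gdf10. The share of all tested genes with that arrangement was not counted. The markers other than Pcp2, Car8 and Calb1 differed less, from -0.14 in Zic1 to -0.37 in Neurod1, so the 10 did not move evenly. The summed level of the 10 markers after conversion to the linear scale was 11200 on KI replicate 94 and 13400 on KI replicate 97, against 16500 on WT replicate 95 and 14900 on WT replicate 96. The summed level of the 8 choroid plexus genes, which is mostly Ttr, was 5610 and 3940 on the KI arrays, against 3820 and 4430 on the WT arrays. The array with the highest choroid plexus sum had the lowest cerebellar sum, and the array with the lowest choroid plexus sum had the highest. The order was not inverse throughout, since WT replicate 96 was above KI replicate 97 in both sums. The summed level of the 34 other choroid plexus genes measured was 4270 and 3710 on the KI arrays, against 3380 and 4080 on the WT arrays. It rests in part on genes with another array order. Slc4a10, the brightest of them, was at 9.15 and 9.45 in KI against 9.26 and 9.65 in WT. Slc12a2 and Trpm3, also bright, had ranges of only 0.16 and 0.14 over the cerebellum arrays. The part of the make-up of the dissections in the genotype differences was not tested.

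**Figure D3:**
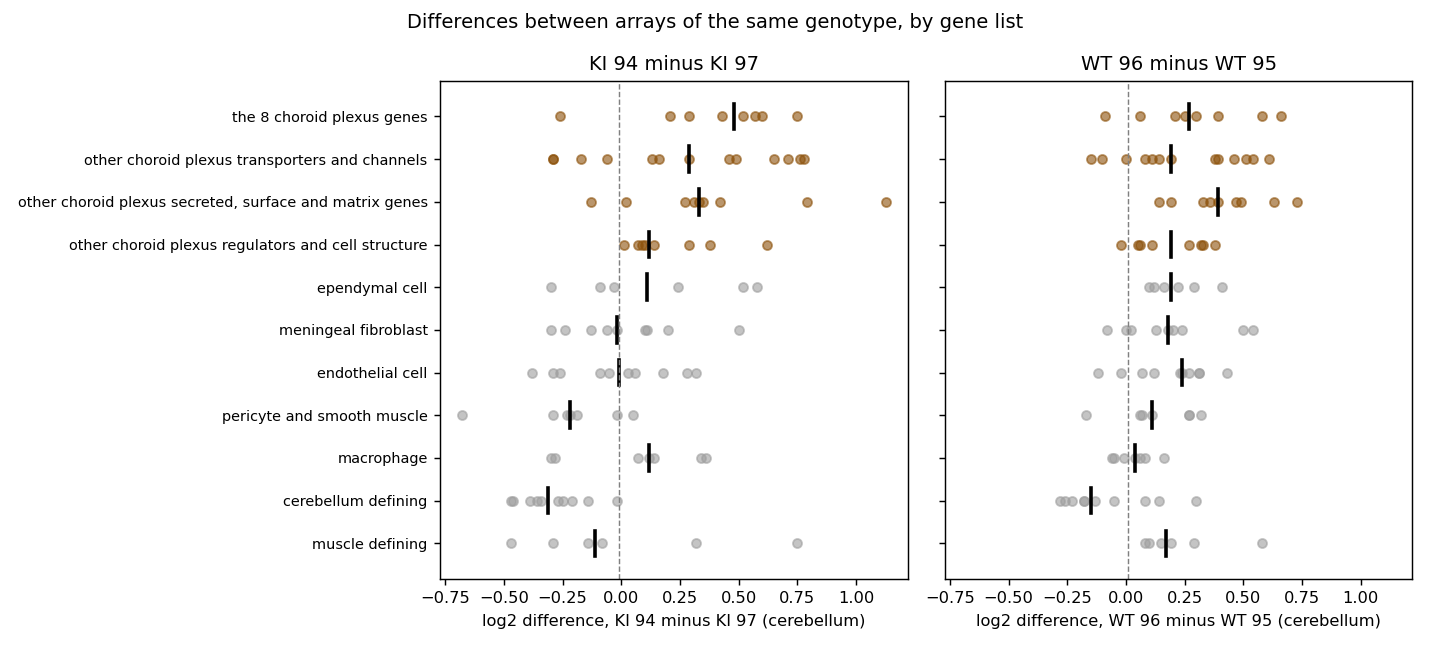
Log2 difference between arrays of the same genotype in cerebellum (horizontal axes), KI replicate 94 minus KI replicate 97 and WT replicate 96 minus WT replicate 95, for the tested genes of each list; points are genes, black bars medians and dashed lines the median of all tested genes. The 8 choroid plexus genes have medians of 0.48 and 0.27, and the cerebellum defining genes have medians of -0.31 and -0.15.

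The 10 genes outside the list with profiles nearest to the mean of the 8, by root mean square distance over the 4 cerebellum arrays, were Cfap52, Tcn2, Tpbgl, Adssl1, Susd2, Txnip, Timp3, Spsb1, Serping1 and Tekt5. Their distances were from 0.0365 to 0.0516 on the log2 scale. Timp3, an inhibitor of matrix metalloproteinases, was at 9.09 and 8.75 in KI and 8.51 and 8.73 in WT. Tcn2, the carrier of vitamin B12 in blood, was at 7.92 and 7.62 in KI and 7.40 and 7.64 in WT. The near genes were of mixed kinds. Adssl1 (15.5-fold), Txnip (15.4-fold), Serping1 (4.52-fold) and Tpbgl (2.85-fold) were called lower in cerebellum than in muscle, and Tekt5 (3.29-fold) was called higher. None of the 10 was in a list of choroid plexus genes. Of the 100 nearest, which are 0.734% of the tested genes, 3 were among the 30 other choroid plexus genes tested (Kcne2, Igfbp2 and Ace). Kcne2 encodes a potassium channel subunit of the epithelium, Igfbp2 a binding protein of insulin-like growth factors and Ace the angiotensin-converting enzyme. Dcn of the meningeal list and Slc2a1 of the endothelial list were also among the 100. With 4 arrays a near profile is a description only.

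The third question was whether the genotypes differ in muscle and whether the effect differs between tissues. Of the 5 genes tested in muscle none was called in limma, where 3.55% of 13933 tested genes were, and 0 of the 5 had an unadjusted p under 0.05, against 20.3% of all genes. The difference was positive in 1 of the 5, Ttr, and in 55% of all genes. Kl differed by -0.28 (95% interval from -0.86 to 0.30), Kcnj13 by -0.20 (-0.71 to 0.31), Aqp1 by -0.13 (-0.45 to 0.18) and Folr1 by -0.08 (-0.60 to 0.43), KI minus WT. These 4 had the opposite sign from their differences in cerebellum. For the difference of the effects, cerebellum minus muscle, none of the 8 was called in limma, where 0.143% of 14708 genes were, and 0 of the 8 had an unadjusted p under 0.05, against 13.8% of all genes. The largest was that of Kl (0.74 ± 0.36, SE; adjusted p = 0.400).

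**Figure D4:**
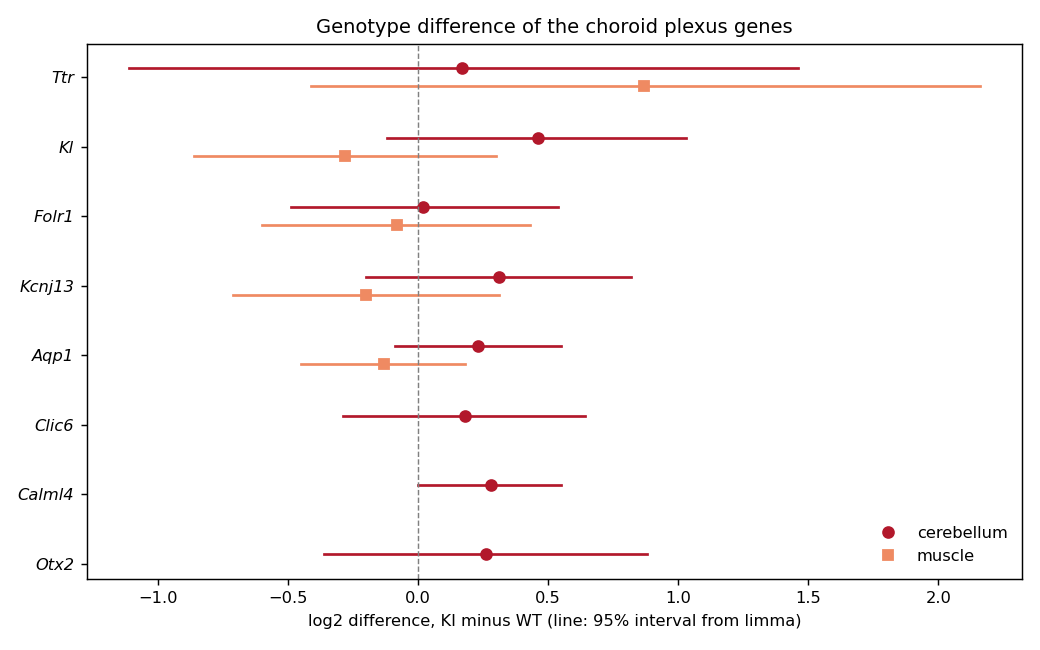
Log2 difference, KI minus WT (horizontal axis), of the choroid plexus genes in cerebellum (circles) and, where tested, in muscle (squares); lines are 95% intervals from limma. No gene was called in either tissue, and the widest intervals are those of Ttr, whose muscle estimate is 0.87 with an interval from -0.41 to 2.16.

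Ttr in muscle rested on 1 array. The KI mean was 6.95 ± 1.67 and the WT mean 6.08 ± 0.00 (SD, n = 2 each), a difference of 0.87 ± 0.57 (SE; adjusted p = 0.429, limma). Without KI muscle replicate 97 it was 2.05 and was called (adjusted p = 0.00918), and without KI muscle replicate 94 it was -0.31 and was not (0.511). Ttr was the gene, of 19938, that exceeded the other 3 muscle arrays by most on KI muscle replicate 94, by 2.05. The other choroid plexus genes did not follow to that extent: Clic6 was 0.24 and Calml4 0.10 above the highest other array, and Kcnj13, Folr1, Aqp1, Kl and Otx2 were not above it. Clic6 reached the 40th percentile on 0 muscle arrays, and Calml4 and Otx2 on 1 each. Values this low can show little of a small excess. Ttr is also made by liver and other organs, and no marker of these was examined.

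The next largest such excesses on KI muscle replicate 94 included genes with high levels in the cerebellum. The 3 described here, at ranks 3, 5 and 8, were chosen after their values were seen. Besides Ttr, the rest of the first 10 were Gm4841, Prl, Olfr299, Ifi205, Ehd3 and Nefl, so the 3 are a selection. Gm4841, Olfr299 and Ifi205 were below the 40th percentile on every cerebellum array and Prl on all but 1, while Ehd3 and Nefl reached it on every one. Ptgds, the prostaglandin D synthase secreted into cerebrospinal fluid, was at 7.46 and 5.83 in KI muscle, against 6.32 and 6.36 in WT muscle. Vsnl1, a neuronal calcium sensor, was at 6.83 and 5.74 in KI muscle, against 5.68 and 5.80 in WT muscle. Snap25, a protein of synaptic vesicle fusion, was at 7.28 and 5.57 in KI muscle, against 5.60 and 6.32 in WT muscle. All 3 had cerebellum levels between 11.06 and 12.26. The defining cerebellar markers did not share this: 9 of 10 were not above the highest other muscle array, and Gabra6 was above it by 0.05. Their summed linear level was 371 and 394 in KI muscle, against 421 and 365 in WT muscle. The part of RNA from other tissue in the Ttr value was not tested.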

How the data were processed

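Biotin-labelled RNA was read on 8 Affymetrix Mouse Gene 1.0 ST arrays with 35556 probe sets. The deposited values are on a log2 scale, and per the submitters' processing notes the authors used GCOS and RMA. As a method RMA corrects background, brings arrays to a common distribution and summarises probes by median polish. The sources used here do not state versions, filters, a build or which arrays were normalised together. Symbols came from the platform annotation: 21789 probe sets carried 1 symbol, 1621 carried several, and the brightest probe set per gene was kept. In R 4.3.3, limma 3.58.1 fitted 1 mean for each of the 4 groups, with variances moderated by eBayes (4 residual and 5.30 prior degrees of freedom). Adjusted p and 95% intervals come from this fit, which was tested on simulated data. The number of arrays limits the precision.

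The genes and lists were chosen with earlier results of these data known. The named genes are the 8 measured, up to 4 per further choroid plexus list with the smallest p in cerebellum, and the 10 with the nearest profiles; others are marked. The same replicate numbers occur in both tissues, without a statement of what they number, and the arrays were treated as unpaired. Alternatives were other filters, probe set averaging, repeated quantile normalisation, median centring, other variance models, arrays of 1 tissue, a threshold of 0.1, a replicate block and leaving out arrays.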

Additional observations from a re-analysis of the deposited data

How the results depend on the processing

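No choroid plexus gene was called between KI and WT cerebellum in limma under any alternative run for it, and none of the 30 other choroid plexus genes was. The count called between tissues was 6 of 8 throughout, also with the replicate number as a block, where it was 6. Deviations of same-numbered arrays of the 2 tissues correlated with r = 0.0566 in KI and -0.0965 in WT over genes. With 2 arrays a group the deviations of 1 array mirror those of the other, so these values cannot decide whether the numbers pair the arrays. The replicate block changed no call of these genes. In muscle the count was 0 in all alternatives except without KI muscle replicate 97, where it was 1 (Ttr, 2.05); leaving out arrays thus gave 0 to 1. Leaving out 1 array turned the sign of some differences that were not called: in cerebellum Ttr ran from -0.09 to 0.43, Folr1 from -0.30 to 0.35 and Clic6 from -0.12 to 0.48, and in muscle Ttr ran from -0.31 to 2.05, Kcnj13 from -0.49 to 0.08 and Folr1 from -0.23 to 0.06. A filter on all 4 arrays gave no muscle value for Kl and Folr1. The count over all genes in cerebellum, 28, was 4 to 12 when a cerebellum array was left out and 18 with no filter. In muscle the 495 calls became 105 to 178 without 1 muscle array, 246 with no filter, 995 at a threshold of 0.1 and 155 with the muscle arrays fitted by themselves. For the difference of the effects between tissues the 21 calls over all genes became 0 to 23 without 1 array (0 to 3 except when KI muscle replicate 94 was the one left out). They became 3 with no filter, 14 with the replicate number as a block, 63 with trend and robust variances and 108 at a threshold of 0.1. With 2 arrays a group, the genotype differences of the 8 genes in cerebellum, up to 1.37-fold in Kl, could not be told from the spread between arrays.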

Other observations

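KI cerebellum replicate 94, which had the highest mean level of the 8 choroid plexus genes, also stood apart in genes outside the lists, chosen here after their values were seen. The largest excess over the other 3 cerebellum arrays was in Glra1, a glycine receptor subunit of brainstem and spinal cord neurons, at 8.72 and 6.94 in KI against 6.90 and 7.21 in WT. Slc6a5, the glycine transporter of glycinergic neurons, was at 9.05 and 7.68 in KI against 7.69 and 7.98 in WT. Htr2c, a serotonin receptor abundant in choroid plexus and present in neurons, was at 7.34 and 6.39 in KI against 6.27 and 6.34 in WT. Each of the 3 was high on 1 array only, with the other KI array close to the WT arrays. By excess over the other 3 cerebellum arrays they ranked 1, 5 and 9. The rest of the first 10 were Lamp5, Prl, Ifit3b, Spink10, Gabra5, Mab21l2 and Slc5a7, so the 3 described are a selection. Lamp5, at rank 2, was at 7.53 and 5.34 in KI against 6.03 and 5.78 in WT.

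Prl, prolactin, the pituitary hormone that binds the receptor encoded by the listed but unmeasured Prlr, was high on both arrays numbered 94. It was at 5.65 on KI replicate 94 and 3.78 on KI replicate 97 in cerebellum, against 3.95 and 4.25 in WT. In muscle it was at 5.53 and 4.30 in KI, against 4.50 and 4.35 in WT. On both arrays numbered 94 it was above the 40th percentile and on the other 6 it was below it.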
